A study of Mus musculus with 10 samples.

Results

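The 36 genes described here are immediate early genes, subunits and partners of the AP-1 transcription factor, and a few effectors that the same signals induce. They were chosen by name, with earlier results of these data known, and are 36 of 18193 genes with a named probe set on the arrays. All 36 were measured, by 72 probe sets, and each gene was read from its brightest probe set. Expression was measured in CJ9, a mouse embryonic stem cell (ESC) line derived from strain 129svj, on Affymetrix Mouse Genome 430 2.0 arrays. Cells were infected with lentiviruses for 48 h with polybrene (10 µg/mL), were then given ESC medium with LIF and puromycin (4 µg/mL), and were cultured for 48 h after infection. The viruses carried Wapal shRNA2 or Wapal shRNA1, short-hairpin RNAs against Wapal, the factor that releases cohesin from chromatin, or Smc3 shRNA2 or Smc3 shRNA1 against Smc3, which is itself part of the cohesin ring, or no hairpin (Empty Vector). Each of the 5 groups had 2 arrays, 10 in all. All groups share this 1 cell line, the infection and the selection, and depletion was partial. The study calls the replicates biological without saying if they were infected separately, so every p-value reflects only how far these arrays scattered, which may be technical.

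Immediate early genes are transcribed within minutes of a growth factor, serum or stress signal and need no new protein synthesis. Signals reach them through the ERK, JNK and p38 kinases, which act on promoter-bound factors such as SRF with its ELK partners, CREB and JUN itself. Their products are transcription factors (AP-1 dimers of FOS and JUN proteins, EGR, KLF and NR4A factors) and inhibitors that end the signal, among them the phosphatase Dusp1, the mRNA decay factor Zfp36 and the NF-kappaB inhibitor Nfkbia. In ESCs, ERK signalling is known for pushing cells out of the pluripotent state.

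The promoter windows of 4 members are shown, because Fos, Zfp36 and Gadd45g rose with Smc3 depletion and Dusp1 differed between hairpins against both genes. Each window runs from 250 bases before to 50 bases after the start of the gene (RefSeq, build GRCm38.p6), on the strand of the gene. The windows are chr12:85473640-85473939 (Fos, plus strand), chr7:28379179-28379478 (Zfp36, minus strand), chr13:51846425-51846724 (Gadd45g, plus strand) and chr17:26508423-26508722 (Dusp1, minus strand). Capitals mark matches to the CArG box (the SRF site), TGACGTCA (the full CREB and ATF site), TGACG (its first letters, so it overlaps that site), TGANTCA (a loose form of the AP-1 site) and TATAAA (the TATA box), searched on both strands. The N in TGANTCA stands for any base, so its matches are not all AP-1 sites.
Fos: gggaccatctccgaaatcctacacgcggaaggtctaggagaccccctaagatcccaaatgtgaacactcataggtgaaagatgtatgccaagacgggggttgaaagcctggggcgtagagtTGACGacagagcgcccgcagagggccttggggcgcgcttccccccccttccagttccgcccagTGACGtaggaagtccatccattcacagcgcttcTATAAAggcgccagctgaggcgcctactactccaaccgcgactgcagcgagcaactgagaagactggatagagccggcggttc
Zfp36: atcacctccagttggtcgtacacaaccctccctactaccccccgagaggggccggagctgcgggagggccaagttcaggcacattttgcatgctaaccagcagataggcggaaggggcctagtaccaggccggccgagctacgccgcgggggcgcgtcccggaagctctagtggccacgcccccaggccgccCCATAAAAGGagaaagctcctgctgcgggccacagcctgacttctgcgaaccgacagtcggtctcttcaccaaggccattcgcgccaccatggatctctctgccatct
Gadd45g: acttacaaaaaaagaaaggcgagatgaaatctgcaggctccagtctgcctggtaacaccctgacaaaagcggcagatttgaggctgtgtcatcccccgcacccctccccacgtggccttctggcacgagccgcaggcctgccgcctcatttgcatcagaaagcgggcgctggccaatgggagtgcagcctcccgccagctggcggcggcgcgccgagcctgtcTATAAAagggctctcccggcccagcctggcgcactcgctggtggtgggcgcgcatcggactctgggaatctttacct
Dusp1: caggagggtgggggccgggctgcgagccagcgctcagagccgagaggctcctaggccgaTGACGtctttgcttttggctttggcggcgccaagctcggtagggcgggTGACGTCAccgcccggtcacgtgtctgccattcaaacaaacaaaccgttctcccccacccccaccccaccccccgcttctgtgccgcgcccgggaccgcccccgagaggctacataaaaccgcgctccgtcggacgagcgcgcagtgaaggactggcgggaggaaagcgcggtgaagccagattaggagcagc

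Zfp36 held a CArG box that began 58 bases before the start. Fos held TGACG at 129 and 66 bases before the start and TATAAA at 33 bases before it. Dusp1 held TGACGTCA at 143 bases before the start and a separate TGACG at 191 bases before it, and Gadd45g held TATAAA at 27 bases before the start. Of the 36 members, 29 had a window in the RefSeq table of 27025 genes. A CArG box was found in 3 of these 29 (Egr2, Srf and Zfp36), or 10.3%, against 1.81% of all genes in the table. TGACG was found in 16 members (55.2%) against 23.0% of genes, TGACGTCA in 2 (6.90%) against 2.03%, and TATAAA in 11 (37.9%) against 15.7%. TGANTCA was found in 2 members (6.90%) against 8.97% of genes. ATTGG, the reversed CCAAT box, was found in 16 (55.2%) against 41.1%. These are matches of letters in a short window and say nothing of binding. Sequence outside the windows was not searched. The lack of a match, as of a CArG box for Fos, therefore does not show that a gene lacks such a site.

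Values are intensities per probe set on a linear scale, and differences are given in log2. The median intensity was 38.6 to 39.7 on the 10 arrays, and 13 of the 36 members had a mean log2 intensity under 6, a dim level near the background of such arrays. The targeted genes were low where the labels said so. Wapal (gene symbol Wapl) had an intensity of 235 and 217 with Wapal shRNA2 and 929 and 1005 with Wapal shRNA1, against 2500.1 and 2648 with Empty Vector. Smc3 had 223 and 189 with Smc3 shRNA2 and 187 and 176 with Smc3 shRNA1, against 1536 and 1555 with Empty Vector. All 10 ESC markers were above the dim level, whereas 9 of 10 fibroblast, 5 of 8 trophectoderm, 6 of 6 primitive endoderm and 4 of 6 macrophage markers were dim. With Smc3 depletion 3 of the 10 ESC markers fell and 0 rose (median -0.20), and with Wapal depletion 1 rose and 1 fell (median -0.11). Of the trophectoderm markers 1 fell with Smc3 depletion and 1 rose with Wapal depletion, of the primitive endoderm markers 1 rose with Smc3 depletion, and no macrophage marker passed in either. Of the fibroblast markers, 1 rose and 3 fell with Wapal depletion and 2 rose and 2 fell with Smc3 depletion, with a summed intensity of 346 on both Wapal shRNA2 arrays, 290 to 318 with Wapal shRNA1, 308 to 314 with Smc3 shRNA2 and 380 to 382 with Smc3 shRNA1, against 380 and 439 with Empty Vector. The Empty Vector arrays stood further apart than replicates of the other groups (SD of the replicate difference 0.25 in log2, against 0.190 to 0.203). The arrays also fell into 2 sides, seen in these values and given by no label: Empty Vector replicate 2 with the Wapal shRNA2 and Smc3 shRNA1 arrays, and Empty Vector replicate 1 with the Wapal shRNA1 and Smc3 shRNA2 arrays. Among probe sets of other genes, 119 separated the sides by over 0.3 in log2. The sides were drawn from an earlier analysis of these same arrays. Replicates of a hairpin never lay on both sides, so hairpin and side cannot be told apart.

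To ask how these genes changed when cohesin or its release factor was lost, the mean of both hairpin groups was compared with Empty Vector for each target. The test was limma on log2 intensities (6 arrays), with p-values adjusted by Benjamini-Hochberg over all 45037 probe sets and a threshold of 0.05. Errors of log2 fold changes are standard errors (SE). They and the p-values rest on scatter between arrays of the same group, so differences between the 2 hairpins do not enter them. With Smc3 depletion, 9 of 36 members rose (Fos, Jun, Maff, Egr1, Klf6, Ier5, Zfp36, Gadd45g and Ccn2) and 2 fell (Gadd45a and Sgk1), so 30.6% of members passed, against 7.62% of all probe sets. The share that rose was 25.0% against 4.22% of all probe sets, and the share that fell was 5.56% against 3.41%. With Wapal depletion, 4 rose (Ier5, Zfp36, Gadd45g and Ccn2) and 1 fell (Zfp36l1), so 13.9% passed, against 5.91% of all probe sets. The share that rose was 11.1% against 2.08%, and the share that fell was 2.78% against 3.83%. Members were read from the brightest probe set of a gene, whereas these backgrounds cover all probe sets. Of the brightest probe sets of 18193 genes, 1107 rose and 716 fell with Smc3 depletion, and 479 rose and 897 fell with Wapal depletion. These shares are larger than those of all probe sets, so the latter overstate the excess of members. The same held for calls in the other comparisons. Without a test, 11 members lay above both Empty Vector arrays on all 4 Smc3 arrays (30.6%, against 11.4% of all probe sets) and 3 lay below (8.33%, against 12.2%), while 7 lay above (19.4%, against 14.9%) and 4 below (11.1%, against 14.1%) on all 4 Wapal arrays. The counts called depended on single arrays: with Smc3 depletion 6 passed without Smc3 shRNA2 replicate 2, and 7 without Smc3 shRNA2 replicate 1 or Empty Vector replicate 1. With Wapal depletion 1 passed without Empty Vector replicate 1, 2 or 3 without any Wapal array, and 8 without Empty Vector replicate 2. The median log2 fold change of the members was 0.14 with Smc3 depletion and 0.20 with Wapal depletion, beside 0.01 over all genes in either comparison. The members' median rested on the control array: with Smc3 depletion it was 0.29 against Empty Vector replicate 1 alone and 0.07 against replicate 2 alone, and with Wapal depletion 0.27 and 0.04. By hairpin it was 0.31 with Wapal shRNA2, 0.03 with Wapal shRNA1, 0.11 with Smc3 shRNA2 and 0.37 with Smc3 shRNA1. Both comparisons share the 2 Empty Vector arrays. In bulk RNA, a change in the number of cells that express a gene and a change in its level per cell cannot be told apart.

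**Figure D1:**
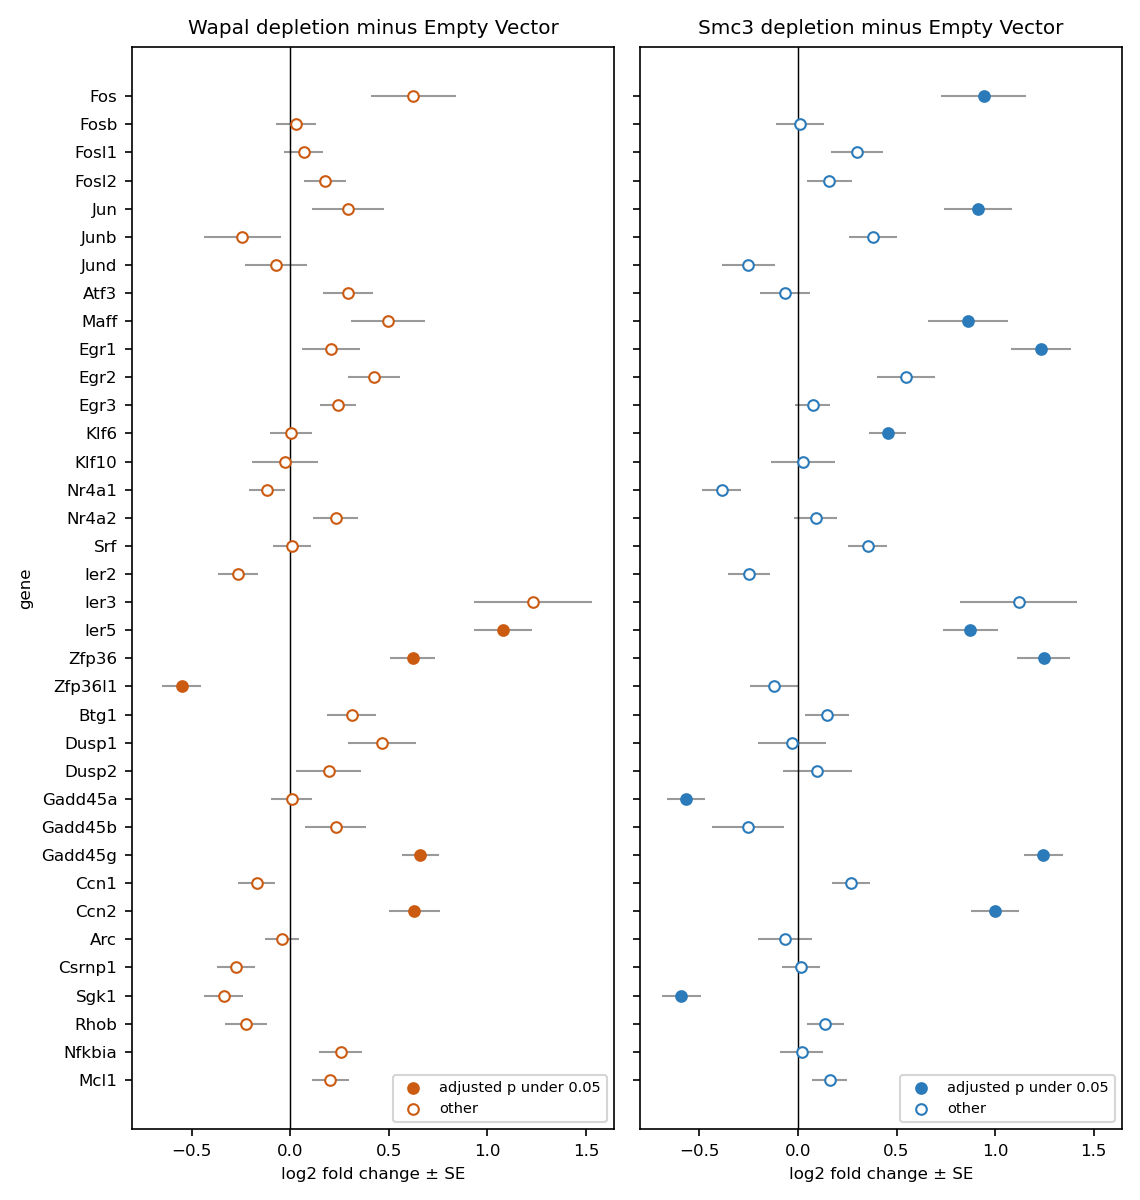
Log2 fold change of each member (rows, grouped by role) with Wapal depletion (left) and Smc3 depletion (right), each the mean of 2 hairpins minus Empty Vector. Bars are SE from limma and filled points have an adjusted p under 0.05. Gadd45g, Zfp36, Ier5 and Ccn2 are filled and right of 0 in both panels, and Egr1 stands at 1.23 on the right and 0.21 on the left.

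Among the FOS and JUN subunits of AP-1, Fos and Jun rose with Smc3 depletion, and none of their brightest probe sets passed with Wapal depletion. Fos, the subunit that pairs with JUN proteins on AP-1 sites, had intensities of 230.4 and 221 with Wapal shRNA2, 115 and 137 with Wapal shRNA1, 159.7 and 139 with Smc3 shRNA2 and 314 and 274 with Smc3 shRNA1, against 79.8 and 149 with Empty Vector. Wapal shRNA2 and Smc3 shRNA1 arrays all lay above both Empty Vector arrays, whereas the Wapal shRNA1 arrays lay between them. Of the Smc3 shRNA2 arrays, replicate 1 lay above both and replicate 2 lay between them. Fos rose by 0.94 ± 0.22 in log2 with Smc3 depletion (1.92-fold, adjusted p = 0.0357) and had 0.62 ± 0.22 with Wapal depletion (adjusted p = 0.132). It passed with Smc3 shRNA1 alone (1.43, adjusted p = 0.0111) but not with Smc3 shRNA2 alone (0.45, adjusted p = 0.349). Jun, which can also pair with itself, had 50.4 and 48.8 with Wapal shRNA2, 24.4 and 31.3 with Wapal shRNA1, 45.2 and 43.5 with Smc3 shRNA2 and 67.6 and 78.4 with Smc3 shRNA1, against 24.0 and 38.0 with Empty Vector. All 4 Smc3 shRNA arrays lay above the Empty Vector arrays, though this probe set was dim. Jun rose by 0.91 ± 0.17 with Smc3 depletion (adjusted p = 0.0159) and had 0.29 ± 0.18 with Wapal depletion (adjusted p = 0.372), while its second, still dimmer probe set had 0.12 with Smc3 depletion (adjusted p = 0.521). Empty Vector replicate 2 exceeded replicate 1 by 0.90 for Fos and 0.67 for Jun. Against the Empty Vector array of their own side, Fos had 0.60 with Wapal shRNA2, 0.65 with Wapal shRNA1, 0.90 with Smc3 shRNA2 and 0.98 with Smc3 shRNA1. Jun likewise had 0.38 with Wapal shRNA2, 0.21 with Wapal shRNA1, 0.89 with Smc3 shRNA2 and 0.94 with Smc3 shRNA1. Such values, here and below, rest on 1 Empty Vector array each and on sides read from these arrays. They shift the difference between hairpins by the gap between the Empty Vector arrays, so they do not show that hairpins agree. Fosb, Fosl1, Fosl2 and Junb, all dim, and Jund passed in neither comparison, with log2 fold changes of -0.24 (Junb) to 0.18 (Fosl2) with Wapal depletion and -0.25 (Jund) to 0.38 (Junb) with Smc3 depletion. The second probe set of Fosl1, which was dim as well, rose with Wapal depletion (0.41 ± 0.09, adjusted p = 0.0405), against 0.07 on the first. Junb passed with Smc3 shRNA1 alone (0.60 ± 0.14, adjusted p = 0.0357). Leaving out Empty Vector replicate 1 or any of the 4 Smc3 arrays ended the call of Fos (adjusted p up to 0.119), and leaving out Smc3 shRNA1 replicate 2 or either Smc3 shRNA2 array ended that of Jun (adjusted p up to 0.0646).

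**Figure D2:**
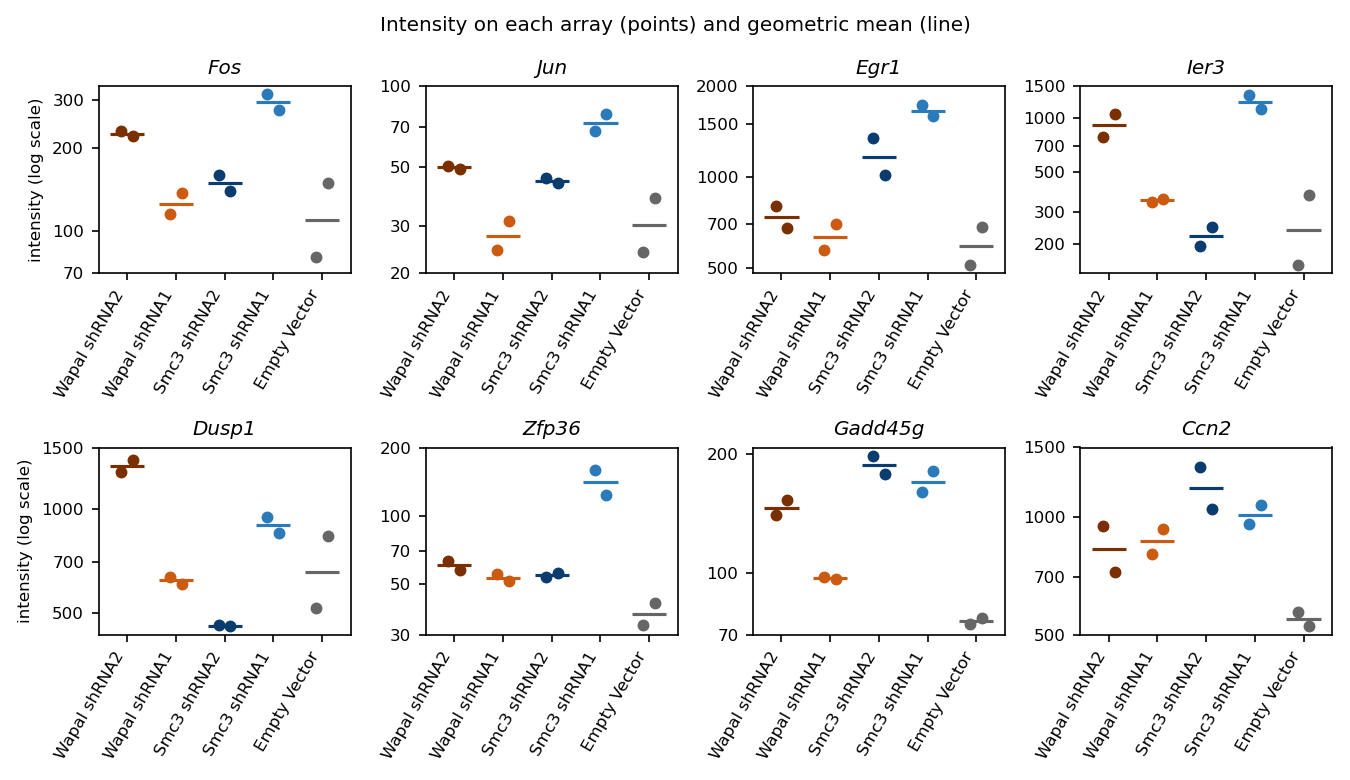
Intensity (log axis) of 8 members on each array, with points for arrays and a line at the geometric mean of the 2 arrays of a group. The 2 Empty Vector arrays lie far apart for Fos, Jun, Ier3 and Dusp1 and close together for Gadd45g and Ccn2, whose 8 depleted arrays all lie above them.

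Partners of AP-1 differed from each other. Maff, a small MAF protein without an activation domain, had 166 and 224 with Wapal shRNA2, 115 and 121 with Wapal shRNA1, 149 and 148 with Smc3 shRNA2 and 312 and 207 with Smc3 shRNA1, against 85.4 and 134 with Empty Vector. All 4 Smc3 arrays lay above Empty Vector and the Wapal shRNA1 arrays lay between its 2 arrays. It rose by 0.86 ± 0.20 with Smc3 depletion (adjusted p = 0.0392) and had 0.50 ± 0.19 with Wapal depletion (adjusted p = 0.159). The call for Maff was lost without Empty Vector replicate 1, Smc3 shRNA1 replicate 1 or either Smc3 shRNA2 array (adjusted p up to 0.195). Against the Empty Vector array of its own side, Maff had 0.53 with Wapal shRNA2, 0.46 with Wapal shRNA1, 0.80 with Smc3 shRNA2 and 0.93 with Smc3 shRNA1. Atf3, a stress-induced repressor that pairs with JUN, had 72.1 and 69.4 with Wapal shRNA2, 33.2 and 42.5 with Wapal shRNA1, 39.4 and 31.8 with Smc3 shRNA2 and 42.5 and 49.3 with Smc3 shRNA1, against 45.5 and 38.9 with Empty Vector. The Wapal shRNA2 arrays lay above all others, though this probe set was dim. Atf3 rose with Wapal shRNA2 (0.75 ± 0.15, adjusted p = 0.0332) and had 0.29 ± 0.13 with Wapal depletion (adjusted p = 0.208).

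Of the other transcription factors, Egr1 rose most with Smc3 depletion. Egr1, a zinc-finger factor that follows ERK activity, had 802 and 676 with Wapal shRNA2, 575 and 697 with Wapal shRNA1, 1342 and 1014 with Smc3 shRNA2 and 1729 and 1592 with Smc3 shRNA1, against 511 and 685 with Empty Vector. All Smc3 shRNA arrays lay above all others. Egr1 rose by 1.23 ± 0.15 with Smc3 depletion (2.35-fold, adjusted p = 0.00295), also with Smc3 shRNA2 alone (0.98 ± 0.18, adjusted p = 0.0141) and with Smc3 shRNA1 alone (1.49 ± 0.18, adjusted p = 0.0023). With Wapal depletion Egr1 had 0.21 ± 0.15 (adjusted p = 0.443). Egr2, a dim relative, lay above both Empty Vector arrays on all 8 depleted arrays (11.0 to 15.4, against 8.14 and 9.89) but did not pass with Smc3 depletion (0.55 ± 0.15, adjusted p = 0.0642) or Wapal depletion (0.43 ± 0.13, adjusted p = 0.104), and its second, dimmer probe set had 0.04 and 0.01. Klf6, a growth-restraining zinc-finger factor, had 236 on both arrays with Wapal shRNA2, 144 and 123 with Wapal shRNA1, 207 and 222 with Smc3 shRNA2 and 267 and 282 with Smc3 shRNA1, against 168 and 186 with Empty Vector. The Wapal shRNA2 and all Smc3 arrays lay above Empty Vector, and the Wapal shRNA1 arrays lay below it. Klf6 rose by 0.45 ± 0.09 with Smc3 depletion (adjusted p = 0.0243) and had 0.00 ± 0.11 with Wapal depletion. The Klf6 call rested on every array but Empty Vector replicate 2 (adjusted p up to 0.131 without another), and 2 of its 5 probe sets passed. Nr4a1, an orphan nuclear receptor, had 277 and 298 with Wapal shRNA2, 261 and 265 with Wapal shRNA1, 209.9 and 177 with Smc3 shRNA2 and 271 and 267 with Smc3 shRNA1, against 292 and 304 with Empty Vector. All 4 Smc3 arrays lay below Empty Vector, the Smc3 shRNA2 arrays lowest. It fell with Smc3 shRNA2 (-0.63 ± 0.12, adjusted p = 0.0158) and had -0.39 ± 0.10 with Smc3 depletion (adjusted p = 0.0545), where it passed in 5 of 9 alternative analyses. Srf, which itself switches on many of these genes, rose with Smc3 shRNA2 (154 and 149, against 105 and 108 with Empty Vector, or 0.52 ± 0.11, adjusted p = 0.0311) and had 0.35 ± 0.10 with Smc3 depletion (adjusted p = 0.0702). Its second probe set, of like brightness, had 0.17 with Smc3 shRNA2 (adjusted p = 0.434) and 0.11 with Smc3 depletion (adjusted p = 0.555). Egr3, Klf10 (a factor that TGF-beta induces) and the dim nuclear receptor Nr4a2 passed in no comparison with Empty Vector.

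**Figure D3:**
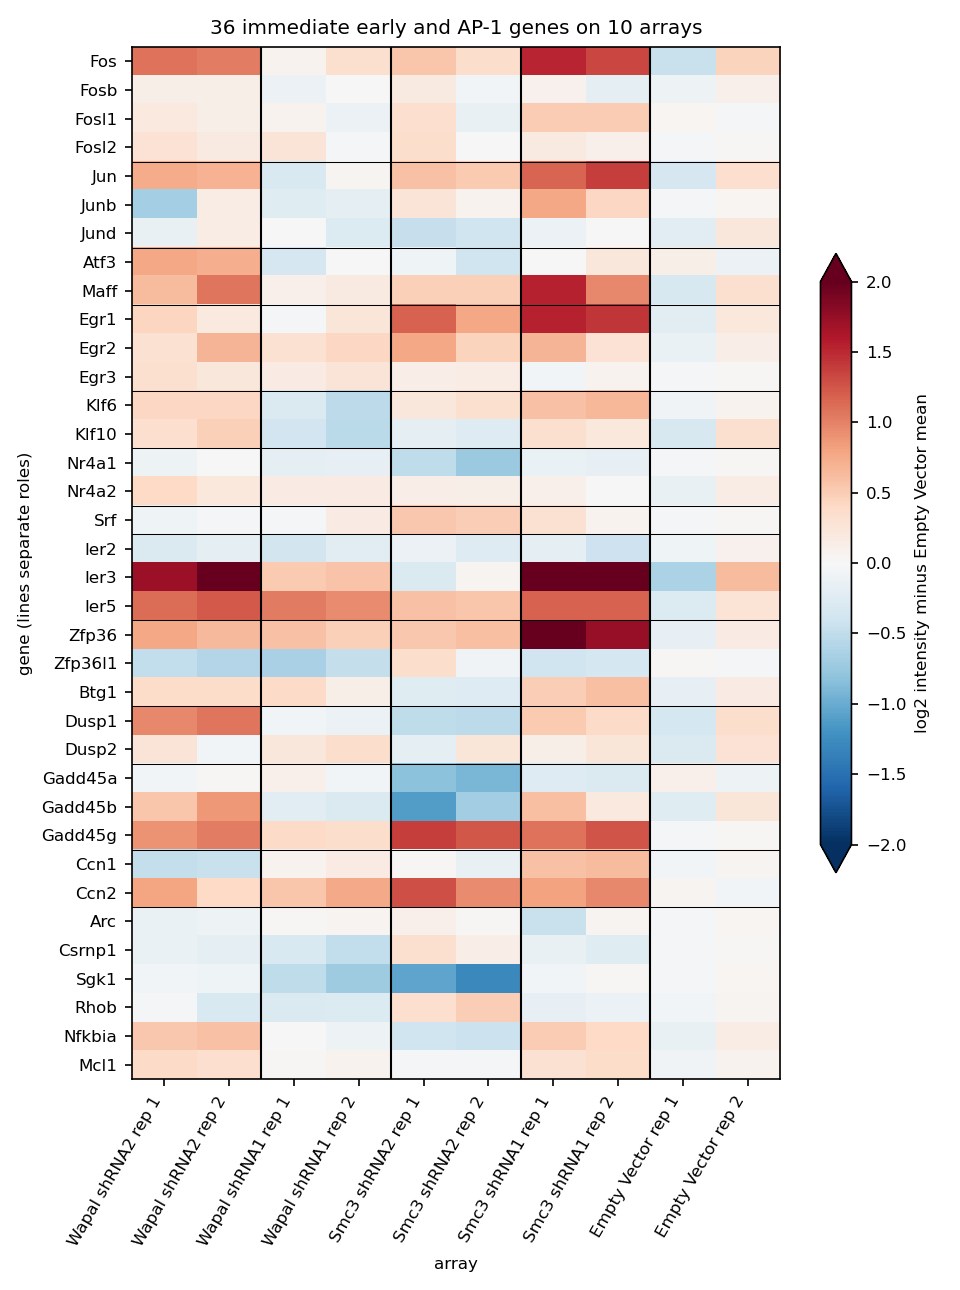
Log2 intensity minus the Empty Vector mean of each member (rows) on each array (columns), with colours capped at -2 and 2 and horizontal lines between roles. Ier3, Fos, Dusp1 and Gadd45b are redder on the Wapal shRNA2 and Smc3 shRNA1 arrays than on those of the other hairpin, and Gadd45g is red on all 8 depleted arrays.

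Ier3, an early gene that modulates ERK signalling and cell survival, had the widest range of the members. Its intensities were 779 and 1054 with Wapal shRNA2, 342 and 354 with Wapal shRNA1, 195 and 248 with Smc3 shRNA2 and 1334 and 1124 with Smc3 shRNA1, against 153 and 372 with Empty Vector. Wapal shRNA1 and Smc3 shRNA2 arrays lay between the 2 Empty Vector arrays, which themselves differed by 1.28 in log2. Ier3 rose with Wapal shRNA2 (1.92 ± 0.35, adjusted p = 0.0271) and with Smc3 shRNA1 (2.36 ± 0.34, adjusted p = 0.00529). It just missed the threshold with Wapal depletion (1.23 ± 0.30, adjusted p = 0.0505) and with Smc3 depletion (1.12 ± 0.30, adjusted p = 0.0596), and passed both without Empty Vector replicate 2 (1.87, adjusted p = 0.00469, and 1.76, adjusted p = 0.00091) and in 4 of 9 other alternatives. Against the Empty Vector array of its own side, Ier3 had 1.28 with Wapal shRNA2, 1.18 with Wapal shRNA1, 0.52 with Smc3 shRNA2 and 1.72 with Smc3 shRNA1. Ier5, a regulator of the heat shock response, was higher on all 8 depleted arrays, with 78.7 and 85.2 with Wapal shRNA2, 74.9 and 70.1 with Wapal shRNA1, 54.5 and 53.6 with Smc3 shRNA2 and 82.5 on both arrays with Smc3 shRNA1, against 30.3 and 43.8 with Empty Vector. It rose by 1.08 ± 0.15 with Wapal depletion (2.11-fold, adjusted p = 0.00934) and by 0.87 ± 0.14 with Smc3 depletion (adjusted p = 0.0088), and kept both calls when any single array was left out. Against the Empty Vector array of its own side, Ier5 had 0.84 (Smc3 shRNA2) to 1.26 (Wapal shRNA1). Its second probe set lay between 48.2 and 69.0 on all 10 arrays and had 0.09 (adjusted p = 0.692) and -0.01 (adjusted p = 0.968), so the rise of Ier5 was seen with 1 of its 3 probe sets. The probe set that rose was itself dim (mean log2 intensity 5.97). Ier2 had -0.27 ± 0.10 with Wapal depletion and -0.25 ± 0.11 with Smc3 depletion and did not pass (adjusted p = 0.161 and 0.227), though all 8 depleted arrays lay below Empty Vector.

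The mRNA decay factors Zfp36 and Zfp36l1 moved in opposite directions with Wapal depletion. Zfp36, or tristetraprolin, which binds AU-rich elements and speeds the decay of cytokine and early gene mRNAs, had 63.2 and 57.8 with Wapal shRNA2, 55.4 and 51.5 with Wapal shRNA1, 53.5 and 55.8 with Smc3 shRNA2 and 159 and 124 with Smc3 shRNA1, against 33.1 and 41.2 with Empty Vector. All 8 depleted arrays lay above Empty Vector, and Smc3 shRNA1 stood far above the rest, though this probe set was dim (mean log2 intensity 5.95). Zfp36 rose by 1.25 ± 0.13 with Smc3 depletion (2.37-fold, adjusted p = 0.00168) and by 0.62 ± 0.11 with Wapal depletion (1.54-fold, adjusted p = 0.0236). Its relative Zfp36l1, which acts on the same elements, had 739 and 687 with Wapal shRNA2, 660.0 and 748 with Wapal shRNA1, 1317 and 989 with Smc3 shRNA2 and 785 and 810.0 with Smc3 shRNA1, against 1053 and 1019.8 with Empty Vector. All Wapal and Smc3 shRNA1 arrays lay below Empty Vector, and the Smc3 shRNA2 arrays lay on either side of it. Zfp36l1 fell by 0.55 ± 0.10 in log2 with Wapal depletion (adjusted p = 0.0212), and its second probe set fell as well (-0.69, adjusted p = 0.0112). With Smc3 depletion it had -0.12 ± 0.12 (adjusted p = 0.652). With Wapal depletion both calls were lost without Empty Vector replicate 1 or any of the Wapal arrays, with an adjusted p of up to 0.107 for Zfp36 and 0.0893 for Zfp36l1. Btg1, an antiproliferative partner of the deadenylation machinery, had 1465 and 1462 with Wapal shRNA2, 1481 and 1226 with Wapal shRNA1, 959 and 942 with Smc3 shRNA2 and 1592 and 1723 with Smc3 shRNA1, against 1015 and 1262 with Empty Vector. The Smc3 shRNA1 arrays lay above Empty Vector and the Smc3 shRNA2 arrays below it. It rose with Smc3 shRNA1 (0.55 ± 0.13, adjusted p = 0.0346) but had -0.25 ± 0.13 with Smc3 shRNA2 (adjusted p = 0.304).

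Dusp1, the phosphatase that switches off p38 and JNK, had 1272 and 1381 with Wapal shRNA2, 635 and 609 with Wapal shRNA1, 461 and 458 with Smc3 shRNA2 and 945 and 853 with Smc3 shRNA1, against 517 and 834 with Empty Vector. Wapal shRNA2 and Smc3 shRNA1 lay above both Empty Vector arrays, Smc3 shRNA2 lay below both, and Wapal shRNA1 lay between them. Dusp1 rose with Wapal shRNA2 (1.01 ± 0.20, adjusted p = 0.0344), and had 0.47 ± 0.17 with Wapal depletion (adjusted p = 0.151) and -0.03 ± 0.17 with Smc3 depletion (adjusted p = 0.947). Against the Empty Vector array of its own side it had 0.67 with Wapal shRNA2, 0.26 with Wapal shRNA1, -0.17 with Smc3 shRNA2 and 0.11 with Smc3 shRNA1. Dusp2, a dim phosphatase of the ERK pathway, had 0.19 ± 0.16 and 0.10 ± 0.17 with Wapal and Smc3 depletion and passed in no comparison.

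The 3 GADD45 genes, whose small acidic products bind the p38 activator MEKK4, differed in direction. Gadd45g had 140.4 and 153 with Wapal shRNA2, 98.1 and 96.8 with Wapal shRNA1, 198 and 179 with Smc3 shRNA2 and 160.5 and 181 with Smc3 shRNA1, against 74.3 and 77.0 with Empty Vector. Its groups did not overlap with Empty Vector, whose arrays differed by only 0.05 in log2. Gadd45g rose by 1.24 ± 0.10 with Smc3 depletion (2.37-fold, adjusted p = 0.000445), a call kept when any single array was left out, and by 0.66 ± 0.09 with Wapal depletion (1.58-fold, adjusted p = 0.0103), a call lost without Empty Vector replicate 1 (adjusted p = 0.0514). Gadd45a, the p53 target of the family, had 400.0 and 422 with Wapal shRNA2, 443 and 400.4 with Wapal shRNA1, 236 and 219.9 with Smc3 shRNA2 and 347 and 339.7 with Smc3 shRNA1, against 444 and 386 with Empty Vector. All 4 Smc3 arrays lay below Empty Vector, and the Wapal arrays lay within its range. It fell by 0.57 ± 0.10 in log2 with Smc3 depletion (adjusted p = 0.0114), though not without Empty Vector replicate 1 or Smc3 shRNA2 replicate 2 (adjusted p up to 0.0680), and had 0.01 ± 0.10 with Wapal depletion (adjusted p = 0.978). Gadd45b, which follows NF-kappaB and TGF-beta, had 399.7 and 498 with Wapal shRNA2, 234 and 222 with Wapal shRNA1, 125 and 169 with Smc3 shRNA2 and 413 and 311 with Smc3 shRNA1, against 229 and 323 with Empty Vector. The Wapal shRNA2 arrays lay above Empty Vector and the Smc3 shRNA2 arrays below it. Gadd45b fell with Smc3 shRNA2 (-0.90 ± 0.21, adjusted p = 0.0388), and had 0.71 ± 0.18 with Wapal shRNA2 (adjusted p = 0.0646).

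Ccn2, a secreted matrix-associated protein (connective tissue growth factor) and a target of YAP and SRF, had 944 and 723 with Wapal shRNA2, 805 and 927 with Wapal shRNA1, 1338 and 1047 with Smc3 shRNA2 and 955 and 1069 with Smc3 shRNA1, against 569 and 525 with Empty Vector. All 8 depleted arrays lay above Empty Vector. Ccn2 rose by 1.00 ± 0.12 with Smc3 depletion (adjusted p = 0.00268), kept when any single array was left out, and by 0.63 ± 0.13 with Wapal depletion (adjusted p = 0.033), kept only without Wapal shRNA2 replicate 2 among the 6 fits that left out 1 array (adjusted p up to 0.104). Ccn1, its closest relative, had 79.5 and 81.7 with Wapal shRNA2, 116 and 125 with Wapal shRNA1, 112 and 99.8 with Smc3 shRNA2 and 166 and 171 with Smc3 shRNA1, against 106 and 115 with Empty Vector. The Smc3 shRNA1 arrays lay above Empty Vector and the Wapal shRNA2 arrays below it. Ccn1 rose with Smc3 shRNA1 (0.61 ± 0.11, adjusted p = 0.0136) and had -0.46 ± 0.11 with Wapal shRNA2 (adjusted p = 0.0564). Its other probe sets had 0.45 to 0.49 with Smc3 shRNA1 and did not pass (adjusted p from 0.0553).

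Of the 6 other effectors, only Sgk1 passed in a comparison of both hairpins with Empty Vector. Sgk1, a kinase of the PI3K pathway, had 2724 and 2639 with Wapal shRNA2, 1977 and 1729 with Wapal shRNA1, 1354 and 1158 with Smc3 shRNA2 and 2719 and 2856 with Smc3 shRNA1, against 2729 and 2904 with Empty Vector. The Smc3 shRNA2 and Wapal shRNA1 arrays lay well below the others. Sgk1 fell by 0.59 ± 0.10 in log2 with Smc3 depletion (adjusted p = 0.0108), by 1.17 ± 0.12 with Smc3 shRNA2 (adjusted p = 0.00141), and by 0.61 ± 0.11 with Wapal shRNA1 (adjusted p = 0.027). With Smc3 shRNA1 it had -0.01 ± 0.12 (adjusted p = 0.965). Nfkbia, the inhibitor that holds NF-kappaB in the cytoplasm, had 2978 and 3067 with Wapal shRNA2, 2042 and 1916 with Wapal shRNA1, 1561 and 1516 with Smc3 shRNA2 and 2918 and 2687 with Smc3 shRNA1, against 1846 and 2271 with Empty Vector. Wapal shRNA2 and Smc3 shRNA1 arrays lay above Empty Vector, Smc3 shRNA2 arrays below it and Wapal shRNA1 arrays between its 2 arrays. Rhob, which was dim, had 51.7 and 43.1 with Wapal shRNA2, 43.9 and 44.3 with Wapal shRNA1, 67.1 and 75.3 with Smc3 shRNA2 and 47.8 and 49.2 with Smc3 shRNA1, against 51.5 and 55.2 with Empty Vector. The Smc3 shRNA2 arrays lay above all others for Rhob. Neither Nfkbia nor Rhob passed against Empty Vector. Mcl1, a survival factor of the BCL2 family, lay between 5882 and 7987 on the 10 arrays and had 0.16 ± 0.09 with Smc3 depletion (adjusted p = 0.363) on its brightest probe set, whereas 4 of its 6 probe sets rose, by 0.57 to 0.60. Arc, a dim neuronal gene, and Csrnp1, a nuclear protein, passed in no comparison with Empty Vector.

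To ask whether both hairpins against a gene gave the same values, the hairpins were compared with each other, and each with Empty Vector. With Wapal shRNA2, 7 members passed against Empty Vector (19.4%, against 3.75% of all probe sets), 6 of which rose (background 1.59%) and 1 of which fell (background 2.16%). With Wapal shRNA1, 4 passed (11.1%, against 4.63%), 2 up (background 1.36%) and 2 down (background 3.26%). With Smc3 shRNA2, 8 passed (22.2%, against 7.65%), of which 4 rose (background 3.82%) and 4 fell (background 3.83%). Those that rose were Egr1, Srf, Gadd45g and Ccn2. Fos, Jun, Maff, Klf6, Ier5 and Zfp36, called with Smc3 depletion, did not pass with this hairpin alone. With Smc3 shRNA1, 13 rose (36.1%, background 5.17%) and 0 fell (background 3.52%), against 8.69% called among all probe sets. Between the Wapal hairpins, 5 members were higher with Wapal shRNA2 than with Wapal shRNA1, 13.9% against 0.713% of all probe sets, and 0 were lower (background 0.393%, 1.11% in either direction). They were Dusp1 (1.09 ± 0.20, adjusted p = 0.0475), Gadd45b (0.97 ± 0.18, adjusted p = 0.048), Atf3 (0.91 ± 0.15, adjusted p = 0.0348), Klf6 (0.83 ± 0.12, adjusted p = 0.0294) and Gadd45g (0.59 ± 0.11, adjusted p = 0.0462). The other probe sets of Klf6 had 0.08 to 0.69 (adjusted p from 0.0573) and did not pass. Those of Gadd45b had 0.53 (adjusted p = 0.178) and 0.46 (adjusted p = 0.21) and did not pass either. Between the Smc3 hairpins, 12 members differed (33.3%, against 9.89% of all probe sets): 11 were lower (background 5.85%) and 1 (background 4.04%), Rhob (0.55 ± 0.11, adjusted p = 0.0175), was higher with Smc3 shRNA2 than with Smc3 shRNA1. Ier3 differed most (-2.48 ± 0.34, adjusted p = 0.00459), followed by Zfp36 (-1.36 ± 0.15, adjusted p = 0.00227), Gadd45b (-1.30 ± 0.21, adjusted p = 0.00834) and Sgk1 (-1.15 ± 0.12, adjusted p = 0.00162). Fos (-0.98 ± 0.25, adjusted p = 0.0443), Dusp1, Nfkbia, Btg1, Ccn1, Gadd45a and Nr4a1 were the other 7. Leaving out any 1 of the 4 Wapal arrays left 0 members called between the Wapal hairpins, and any 1 of the 4 Smc3 arrays 3 to 5 between the Smc3 hairpins, whereas 13 and 18 were called without 1 of the 2 Empty Vector arrays. With 1 of its own 2 arrays left out, Wapal shRNA2 and Wapal shRNA1 had 0 members called against Empty Vector, Smc3 shRNA2 had 4 or 5 and Smc3 shRNA1 had 6 or 7.

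**Figure D4:**
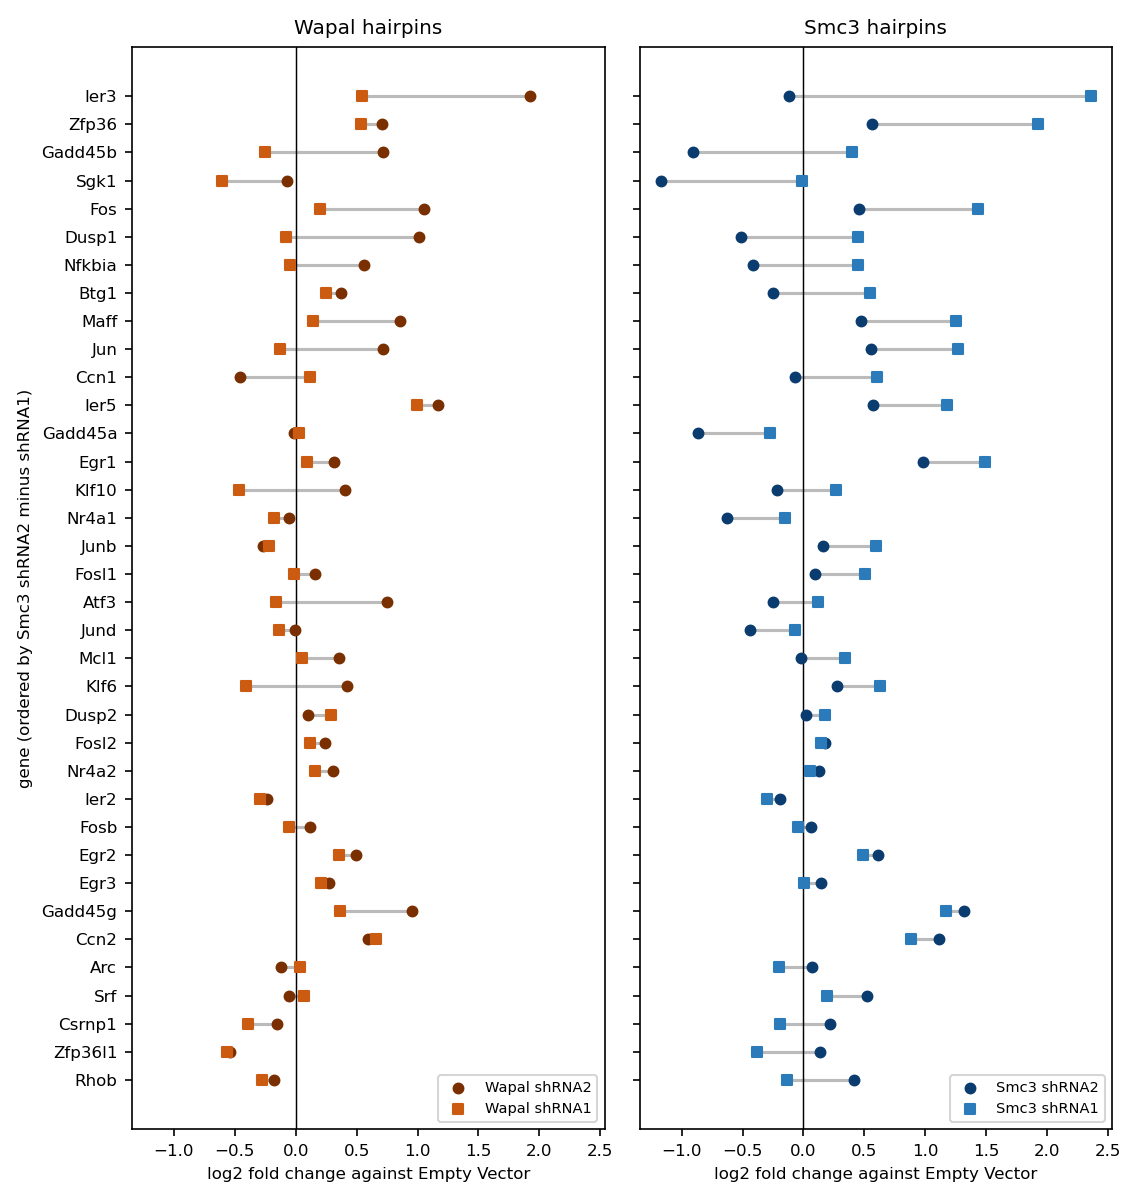
Log2 fold change of each member against Empty Vector with shRNA2 (circles) and shRNA1 (squares) against Wapal (left) and Smc3 (right), ordered by the Smc3 shRNA2 minus Smc3 shRNA1 difference. Ier3 has the widest gap at the top on the right (-0.12 and 2.36) and Rhob is at the bottom, with shRNA2 on the right of shRNA1.

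The hairpin groups were also compared array by array. Without a test, 20 of 36 members (55.6%) were higher on both Wapal shRNA2 arrays than on both Wapal shRNA1 arrays, against 25.5% of all probe sets, and 3 were lower (8.33%, against 24.3%). Conversely, 22 (61.1%) were lower on both Smc3 shRNA2 arrays than on both Smc3 shRNA1 arrays, against 25.8% of all probe sets, and 6 were higher (16.7%, against 30.0%). On the 5 arrays of the side of Empty Vector replicate 2, Klf10, Ier3, Dusp1, Gadd45b and Nfkbia were higher than on every array of the other side (13.9% of members, against 2.23% of all probe sets), and 0 members were lower (background 2.95%). Since the sides were read from these arrays, this is a description. Each hairpin group was also set against the Empty Vector array of its own side, without a test, and the hairpins were compared again. This shifts each difference by the gap between the Empty Vector arrays. For the 5 members called between the Wapal hairpins the median difference was 0.54, against 0.91 directly, and 0 of them were within 0.3. For the 12 called between the Smc3 hairpins it was -0.56, against -0.91 directly, and 2 were within 0.3. Over all 36 members, 25 and 15 were within 0.3. Empty Vector replicate 2 exceeded replicate 1 by over 0.5 in log2 for 8 members (Fos, Jun, Maff, Klf10, Ier3, Ier5, Dusp1 and Dusp2; 22.2%, against 1.89%), and 0 members differed that far the other way (background 3.53%). Other gene groups differed between hairpins too. Of 20 hypoxia and glycolysis genes, 3 were higher with Wapal shRNA2 than with Wapal shRNA1 (background 0.713%) and 14 were lower with Smc3 shRNA2 than with Smc3 shRNA1 (background 5.85%). The summed intensity of these genes was 43161 to 46686 with Wapal shRNA2, 32732 to 33826 with Wapal shRNA1, 29632 to 33726 with Smc3 shRNA2 and 48008 to 52265 with Smc3 shRNA1, against 25827 and 35502 with Empty Vector. That of 8 trophectoderm markers, 5 of them dim, was 832 to 862 with Wapal shRNA2, 496 to 544 with Wapal shRNA1, 413 to 417 with Smc3 shRNA2 and 797 to 885 with Smc3 shRNA1, against 617 and 759 with Empty Vector, and the defining markers Cdx2, Elf5, Gata3 and Hand1 were among the dim ones. Their part in the members' values was not tested. Wapl itself was lower with Wapal shRNA2 than with Wapal shRNA1, and the strength of a hairpin and its side cannot be told apart.

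Wapal depletion was then set directly against Smc3 depletion by a fit over the 10 arrays in which the Empty Vector level cancels. The Smc3 arrays may have been processed apart from the others, and then processing and this difference cannot be told apart. Of 36 members, 17 differed (47.2%, against 17.4% of all probe sets). With Wapal depletion, 5 were higher (13.9%, against 6.71%) and 12 were lower (33.3%, against 10.7%). Of the brightest probe sets of 18193 genes, 1394 were higher and 2692 were lower, which are larger shares than over all probe sets. Without Wapal shRNA1 replicate 2, 10 differed, and 11 did so without Wapal shRNA2 replicate 2 or either Smc3 shRNA1 array. Egr1 differed most and was lower with Wapal depletion (-1.03 ± 0.12, adjusted p = 0.000411), and Zfp36 (-0.62 ± 0.10, adjusted p = 0.00204), Jun (-0.62 ± 0.14, adjusted p = 0.0107), Junb (-0.62 ± 0.16, adjusted p = 0.0193) and Gadd45g (-0.58 ± 0.08, adjusted p = 0.000579) followed. Klf6, Ccn1, Zfp36l1, Ccn2, Rhob, Srf and Csrnp1 were also lower, by 0.29 to 0.45 in log2. Gadd45a (0.57 ± 0.08, adjusted p = 0.000687), Dusp1 (0.50 ± 0.13, adjusted p = 0.0211), Gadd45b (0.48 ± 0.14, adjusted p = 0.0404), Atf3 (0.36 ± 0.11, adjusted p = 0.0437) and Nr4a1 (0.27 ± 0.08, adjusted p = 0.0314) were higher with Wapal depletion. On their second probe sets, Srf had 0.03 (adjusted p = 0.882), Jun 0.03 (adjusted p = 0.87), Csrnp1 0.31 and Gadd45b 0.31 (adjusted p = 0.0949). Those of Zfp36l1 (-0.50, adjusted p = 0.0109) and Klf6 (-0.26, adjusted p = 0.0346) passed. The other probe sets of Ccn1 had -0.28 to -0.08 and did not pass. Fos (-0.32 ± 0.16, adjusted p = 0.21), Ier3 (0.11 ± 0.23, adjusted p = 0.779) and Ier5 (0.21 ± 0.11, adjusted p = 0.211) did not pass, which does not show that they were equal.

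Other early genes of the pathway moved both ways. Of 48 further immediate early genes, 47 were measured: 3 rose and 7 fell with Wapal depletion, and 9 rose and 10 fell with Smc3 depletion, with a median log2 fold change of 0.01 and -0.01. Of all probe sets, 2.08% rose and 3.83% fell with Wapal depletion, and 4.22% rose and 3.41% fell with Smc3 depletion, the background of the counts for these lists. Myc, the growth-driving transcription factor, had 86.6 and 87.7 with Wapal shRNA2, 79.4 and 109 with Wapal shRNA1, 138 and 122 with Smc3 shRNA2 and 62.8 and 54.2 with Smc3 shRNA1, against 274 and 214 with Empty Vector. It fell by 1.43 ± 0.15 with Wapal depletion (adjusted p = 0.00503) and by 1.48 ± 0.13 with Smc3 depletion (adjusted p = 0.0007). Cited2, a co-factor of CBP, fell by 1.05 ± 0.10 with Wapal depletion (adjusted p = 0.0042) and by 1.28 ± 0.12 with Smc3 depletion (adjusted p = 0.000925), and Phlda1 fell by 0.71 ± 0.11 (adjusted p = 0.0143) and 1.02 ± 0.09 (adjusted p = 0.000805). Dusp4, another ERK phosphatase, rose with Smc3 depletion (1.24 ± 0.12, adjusted p = 0.000928) and had 486 and 391 with Smc3 shRNA2 but 78.0 and 87.9 with Smc3 shRNA1, against 83.2 and 77.4 with Empty Vector. Of 47 kinases and factors upstream, 36 were measured: 0 rose and 2 fell with Wapal depletion, and 1 rose and 2 fell with Smc3 depletion. Crebbp, the CREB co-activator, fell with Wapal depletion (-0.60 ± 0.10, adjusted p = 0.0149), and the SRF partner Elk3 (-0.74 ± 0.13, adjusted p = 0.0143) and the p38 activator Map2k6 (-0.52 ± 0.09, adjusted p = 0.011) fell with Smc3 depletion. Of 22 other bZIP partners, 21 were measured: 1 rose with Wapal depletion, and 1 rose and 2 fell with Smc3 depletion. Cebpd rose with both (0.63 ± 0.11, adjusted p = 0.0193, and 0.54 ± 0.10, adjusted p = 0.0162), and Jdp2, an AP-1 repressor, fell with Smc3 depletion (-0.97 ± 0.16, adjusted p = 0.0101).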

How the data were processed

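The authors extracted total RNA, hybridised 1 array per sample and turned the CEL files into 1 value per probe set with RMA. What they deposited is intensity, linear as judged from its range. Neither the RMA version nor which arrays entered the normalization jointly is given in the sources used here. Smc3 values stand on a different scale in the study's supplement, so the Smc3 arrays may have been processed apart. In that case processing and Smc3 depletion cannot be told apart, although the deposited columns have like medians. Because RMA aligns the distributions of the arrays, a shift shared by most genes would not be visible, and changes of dim probe sets are compressed. Precision is limited by the number of arrays.

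After 64 of 45101 probe sets were left out as controls, 45037 were tested with no intensity filter. The platform annotation gives 1 symbol for 34945, several for 932 and none listed for 9160, and only the first kind was used to name genes. All 36 members matched RefSeq by symbol. The log2 of each intensity entered limma 3.58.1 under R 4.3.3 (lmFit and eBayes, a mean for each group, no covariate, two-sided, Benjamini-Hochberg). The scripts were tested on simulated data. Promoter sequences came from RefSeq.

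The members and lists were chosen with earlier results of these data known. Values on each array are given for Fos, Jun and members that passed with Wapal or Smc3 depletion or between hairpins, and from other lists only genes among the 4 smallest adjusted p-values are named, apart from dim trophectoderm markers. Groups follow the sample labels. The study's own supplement exchanges the arrays Wapal shRNA2 replicate 1 and Wapal shRNA1 replicate 2. Under the sample labels, the Wapl intensities of each Wapal hairpin lie close together and those of the 2 hairpins far apart. Correlations of replicate differences between groups were -0.156 to 0.0569 over 10 pairs of groups, so equal replicate numbers do not pair arrays. Alternatives were another normalization, an offset of 16, a filter on dim probe sets, a replicate block, the side as a term, the methods' t-test, other probe sets, exchanged labels and leaving out each array.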

Additional observations from a re-analysis of the deposited data

Results flagged for a closer look

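Several members differed between the 2 hairpins against the same gene by a direct limma test over all probe sets, and each value here is a log2 difference, shRNA2 minus shRNA1. Between the Wapal hairpins these were Dusp1 (1.09), Gadd45b (0.97), Atf3 (0.91), Klf6 (0.83) and Gadd45g (0.59). The other probe sets of Gadd45b and Klf6 did not pass there. Between the Smc3 hairpins, Ier3 (-2.48), Zfp36 (-1.36), Gadd45b (-1.30), Sgk1 (-1.15), Fos (-0.98), Dusp1 (-0.97), Nfkbia (-0.86), Btg1 (-0.80), Ccn1 (-0.67), Gadd45a (-0.59) and Nr4a1 (-0.48) were lower and Rhob (0.55) was higher with Smc3 shRNA2. Hairpin and side of the arrays cannot be told apart in either comparison.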

How the results depend on the processing

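Counts are of members called. Leaving out each array in turn gave 1 to 8 with Wapal depletion (lowest without Empty Vector replicate 1, highest without replicate 2), 0 to 3 with Wapal shRNA1, 0 to 11 with Wapal shRNA2, 0 to 13 between the Wapal hairpins, 6 to 13 with Smc3 depletion, 6 to 16 with Smc3 shRNA1, 4 to 12 with Smc3 shRNA2, 3 to 18 between the Smc3 hairpins and 10 to 19 for Wapal against Smc3 depletion. A replicate block gave 2 with Wapal shRNA1 instead of 4 and stayed within 1.5 times in the other comparisons, while Ier3 passed under it with Wapal depletion (adjusted p = 0.0257) and Smc3 depletion (adjusted p = 0.0323), and the crossed pairing of Smc3 shRNA1, chosen after seeing the data, gave 13 as in the fit without a block. The side as a term takes up the whole difference between the 2 Empty Vector arrays, so its smaller errors follow from its construction, and it gave 8 with Wapal depletion and 3 with Wapal shRNA2. A second quantile normalization gave 2 with Wapal shRNA1 and 3 between the Wapal hairpins. All 10 arrays in 1 fit gave 15 with Wapal shRNA2 and 11 between the Wapal hairpins, leaving out dim probe sets 12 and 8, and trended, robust eBayes 14 and 12, with 9 for Wapal depletion and 19 between the Smc3 hairpins. With the labels of Wapal shRNA2 replicate 1 and Wapal shRNA1 replicate 2 exchanged, 0 members were called with Wapal shRNA1, with Wapal shRNA2 and between these hairpins, so these counts hold under the sample labels only. These labels keep the Wapl intensities of a hairpin together (235 and 217 with Wapal shRNA2, 929 and 1005 with Wapal shRNA1). The methods' t-test called 0 members in all 9 comparisons after Benjamini-Hochberg. For each depletion it pooled the arrays of both hairpins, so differences between hairpins entered its errors, which they do not in limma. Of all 45037 probe sets it called 3 with Wapal depletion, 2 with Wapal shRNA2, 1116 for Wapal against Smc3 depletion and 0 in the others. A count of 0 members therefore says little in the comparisons with few or no calls. Members of 36 at an unadjusted p under 0.05 by this t-test, counted after seeing the data, are given with the share of all probe sets. It called 6 with Wapal depletion (15.7%), 7 with Wapal shRNA1 (12.8%), 8 with Wapal shRNA2 (13.4%) and 14 between the Wapal hairpins (13.5%). It called 5 with Smc3 depletion (12.2%), 11 with Smc3 shRNA1 (14.1%), 7 with Smc3 shRNA2 (13.7%) and 17 between the Smc3 hairpins (18.4%). For Wapal against Smc3 depletion it called 7 (19.6%). The counts with Wapal depletion, with Smc3 depletion and between these depletions lay near the share of all probe sets. The second brightest probe set turned the sign of Ier5 with Smc3 depletion (-0.011, adjusted p = 0.968), and among values not called those of Csrnp1 (0.28) and Gadd45b (-0.11) with Wapal depletion and of Nr4a2 with Smc3 depletion (-0.06). The causes of these shifts were not tested, beyond fewer arrays or probe sets where those were left out.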
